A study of Mus musculus with 74 samples.

Results

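The imprinted Dlk1-Dio3 locus of mouse chromosome 12 was followed through every layer measured in a study of the transcriptional repressor BCL6 in quadriceps muscle. Its 6 named genes, Dlk1, Meg3, Rtl1, Rian, Mirg and Dio3, were matched by exact name and make up 6 of 24940 rows of the RiboTag count table. The genes were chosen by their values in the poly(A) RNA and RiboTag mRNA of Bcl6 knockout muscle, where several of them stood out. Their RNA differences in the 3 knockout RNA comparisons below are therefore given as a description, without a test. The footprint, chromatin and inhibitor measurements were made on other libraries and are tested. The footprint libraries come from the same mice as the RiboTag mRNA, however. One of the H3K27ac series, the window series described below, comes from mice that also gave poly(A) RNA.

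Imprinted genes are expressed from the chromosome of one parent. In this domain the paternal chromosome expresses the protein-coding genes: Dlk1, a transmembrane ligand of the Notch type, Rtl1, a protein derived from a retrotransposon, and Dio3, the deiodinase that inactivates thyroid hormone. The maternal chromosome expresses non-coding RNAs in one orientation: Meg3, Rian (a host of small nucleolar RNAs) and Mirg (a host of microRNAs). A differentially methylated region upstream of Meg3 controls the domain, and microRNAs transcribed antisense to Rtl1 can cleave its mRNA. The domain is active in the embryo and in muscle stem cells, and it is best known in muscle for the callipyge phenotype of sheep, in which misexpression of Dlk1 and Rtl1 enlarges fibres. Callipyge sheep are background and were not measured here. None of these libraries separates the parental alleles, and mature microRNAs were not measured.

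All mice were C57BL/6. Poly(A) RNA came from 5 knockout mice (AEC-Esr Cre (+):Bcl6 fl/fl with TMX), from 4 Cre-negative mice (Bcl6 fl/fl, also with TMX) and from 4 mice of the knockout genotype that received oil. RiboTag mice carry a tagged ribosomal protein, recovered with an anti-HA antibody from cells in which Cre has acted. They comprised 4 knockouts (the knockout genotype plus RiboTag (+), with TMX) and 4 controls (AEC-Esr Cre (+) and RiboTag (+), with TMX). The RiboTag controls carry Cre and no floxed Bcl6 allele in the labels, unlike the Cre-negative controls of the poly(A) series. Each RiboTag mouse gave an mRNA library and a ribosome footprint library, the latter holding the fragments that ribosomes protect. Histone acetylation of the H3K27ac type, which is found at regulatory DNA in use, was profiled in 3 knockout and 3 Cre-negative mice with TMX in each of an acute series, a chronic series and a series counted in 1000 bp windows at BCL6 peaks. The headers of the acute and chronic tables name 1 and 12 weeks. The window series used 6 of the mice sequenced for poly(A) RNA. Nascent RNA came from 5 wild-type muscles given FX1, a small-molecule BCL6 inhibitor, and 5 given DMSO. BCL6 binding rests on 1 wild-type library. The labels give neither ages nor the promoter behind the Cre in words.

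Depth was at least 6703590 tags in the poly(A) libraries, 6499560 to 13045900 gene counts in the RiboTag mRNA libraries and 3248810 to 4370470 in the footprint libraries. It was 13947100 to 32670900 tags in the nascent libraries, and 11772700 to 20773900, 7794880 to 23016300 and 15007500 to 22722400 tags in the acute, chronic and window H3K27ac libraries. Bcl6 itself fell by 0.23 on the deposited log2 scale in knockout against Cre-negative muscle (SE 0.06, limma adjusted p = 0.0134). Its values were 9.98 to 10.2 in the 5 knockouts and 10.2 to 10.4 in the controls, and the groups overlapped slightly. In the footprints Bcl6 was at 70.7 to 108 CPM (tags of a gene relative to the TMM-scaled library total) in the knockouts and 119 to 257 CPM in the controls. In the RiboTag mRNA, counted over whole gene bodies, it stood at 184 to 274 CPM against 125 to 318 CPM, so that this count does not separate the genotypes. Muscle fibre markers were abundant in all RiboTag mRNA libraries (12 genes, 18533 to 28558 CPM summed). Markers of other cell types were present in the same libraries. The summed levels were 3668 to 5903 CPM for 8 fibro-adipogenic genes and 1509 to 2116 CPM for 6 tendon genes. They were 989 to 1144 CPM for 6 pericyte and smooth muscle genes and 813 to 1008 CPM for 8 endothelial genes.

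The small RNAs encoded in the domain show why its rows must be read with care. RefSeq (GRCm38.p6, the assembly that mm10 names) places 61 microRNA hairpins with 113 mature names between the start of Dlk1 and the end of Dio3. Of the hairpins, 6 lie inside Rtl1 on the opposite strand, 10 inside Mirg, 3 inside Rian and 2 inside Meg3. One mature sequence of each hairpin antisense to Rtl1 is printed because their precursor overlaps the Rtl1 row, with the seed (bases 2 to 8) in capitals.
miR-431-5p: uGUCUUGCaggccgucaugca
miR-433-3p: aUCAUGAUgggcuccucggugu
miR-127-3p: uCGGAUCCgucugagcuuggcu
miR-434-3p: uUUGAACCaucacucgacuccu
miR-432: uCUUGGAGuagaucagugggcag
miR-136-5p: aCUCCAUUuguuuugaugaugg

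No seed is shared among these 6. Across the domain the 113 names carry 104 different seeds, and 9 seeds are shared by a pair of names each. The pair below shares the seed GGUUGCC and lies within Mirg, as do miR-410-3p, miR-369-3p and miR-412-3p from hairpins whose rows held 118, 53 and 45 RiboTag mRNA tags over the 4 knockouts and 7, 0 and 2 over the 4 controls.
miR-453: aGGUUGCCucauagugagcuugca
miR-496a-5p: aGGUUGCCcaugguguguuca
miR-410-3p: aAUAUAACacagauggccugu
miR-369-3p: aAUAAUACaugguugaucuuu
miR-412-3p: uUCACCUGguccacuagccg

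In whole-muscle poly(A) RNA the 3 non-coding RNAs stood higher in every knockout than in every control. For Rian, the 5 knockout values on the deposited log2 scale were 10.18, 10.21, 10.28, 10.13 and 10.12, and the 4 Cre-negative values were 9.16, 9.19, 8.94 and 9.02. The groups did not overlap, and the difference was 1.11 (SE 0.05). For Meg3, the knockouts were at 10.15, 10.16, 10.15, 10.06 and 10.08 and the Cre-negative mice at 9.36, 9.35, 9.19 and 9.29. Meg3 therefore differed by 0.82 (SE 0.04), again with no overlap. Mirg was at 7.15, 7.18, 7.20, 6.99 and 7.12 in the knockouts and at 6.52, 6.57, 6.52 and 6.52 in the controls, a difference of 0.59 (SE 0.04). The deposited log2 values are compressed for low genes, and the authors' deposited table gives larger log2 fold changes: 1.53 for Rian, 1.15 for Meg3 and 1.75 for Mirg.

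The protein-coding genes of the paternal chromosome moved far less in these libraries. Rtl1 was at 3.88 to 3.95 in the knockouts and 3.83 to 3.86 in the Cre-negative mice, a separation of 0.06 on a scale on which the lowest genes barely move; the authors' deposited table puts its log2 fold change at 0.48. Dlk1 was at 5.43 to 5.51 against 5.40 to 5.47, with overlap, and differed by 0.04 (SE 0.02). Dio3 was at 3.30 to 3.35 against 3.30 to 3.34, under the minimum mean of 3.32 (the log2 of 10), and was left out of the fit. These exon counts used both strands, so tags from Rtl1 and from the transcript antisense to it cannot be told apart. In bulk muscle, fewer cells of a type and less RNA per cell cannot be told apart either.

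Against the oil-treated mice, which share the knockout genotype but not TMX, the values were similar. The same 5 knockout libraries enter both comparisons, so the second is not independent, and the tables were normalized separately. In the oil table Rian was at 10.1 to 10.3 in the knockouts and at 8.73 to 9.0 in the oil group, a difference of 1.33 (SE 0.06). Meg3 differed by 0.97 (SE 0.03), from 9.14, 9.12, 9.13 and 9.25 in the oil group. Mirg differed by 0.77 (SE 0.04), from 6.37, 6.34, 6.35 and 6.40. Dlk1 differed by 0.02 and Rtl1 by 0.06, with overlapping groups. Of the 5 members that passed the filter, 4 (Meg3, Rtl1, Rian and Mirg) were among the genes called higher at an adjusted p under 0.05 in each table, though Rtl1 not with every library left out of the oil comparison. The background was 6.04% of 13732 genes called higher against Cre-negative mice and 9.89% of 13754 against oil. Groups lay apart with the knockouts higher for 6.45% and 9.52% of genes. These contrasts chose the members, so nothing is read from that count. Their median difference was 0.59 and 0.77, beside a median of 0.00 over all genes tested in both comparisons.

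**Figure D1:**
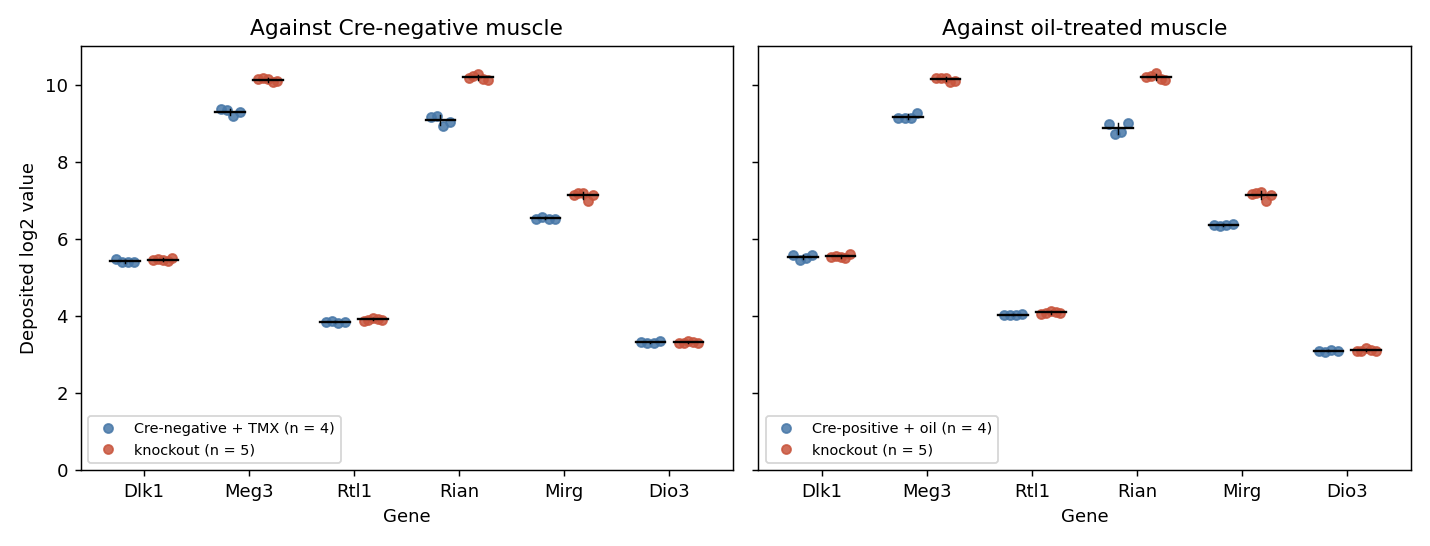
Deposited log2 values of the 6 genes in poly(A) RNA of each mouse, against Cre-negative mice (left) and oil-treated mice (right). Points are mice, horizontal bars are means and vertical bars are SD (5 knockouts, 4 controls in each panel). Meg3, Rian and Mirg of the knockouts sit above all controls, while Dlk1 and Dio3 overlap.

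The RiboTag mRNA showed the same 3 RNAs and, in addition, Rtl1. Rtl1 was near the limit of detection in the controls, at 1.85, 0.304, 1.55 and 0.835 CPM (3 to 20 tags a library), and at 24, 10.6, 21.2 and 28.9 CPM in the knockouts (104 to 399 tags). The groups did not overlap, and the log2 difference was 4.16 (SE 0.42), a 17.9-fold difference. The header does not say whether strand was used in this table or in the footprint counts made with it, so tags of Rtl1 and of its antisense transcripts cannot be told apart in these rows. Rian was at 74.9, 40.8, 59.2 and 60.3 CPM in the controls and at 629, 403, 464 and 718 CPM in the knockouts, a 9.41-fold difference (log2 3.23, SE 0.22). Mirg was at 14.2, 9.33, 9.7 and 10.2 CPM in the controls and 178, 93.2, 156 and 251.5 CPM in the knockouts, a 15.5-fold difference (log2 3.96, SE 0.28).

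Meg3 was at 289, 156, 245 and 267 CPM in the controls and 1173, 721, 1048 and 1260 CPM in the knockouts, a 4.4-fold difference (log2 2.14, SE 0.21). For all 4 of these genes every knockout lay above every control, as for 5.61% of all genes. Dlk1 was at 4.27, 5.68, 8.15 and 4.01 CPM in the controls against 12.1, 5.81, 9.94 and 8.63 CPM in the knockouts, with overlap (log2 0.71, SE 0.28). Dio3 was at about 1 CPM in both groups (0.582 to 1.34 CPM against 0.509 to 1.57 CPM, 5 to 16 tags a library) and overlapped fully. Of the 6 members, 4 were among the genes called higher, where 1.95% of 14476 genes were; this contrast also chose the members. The median over the 6 was 2.69, beside 0.01 over all genes.

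The 4 genes that stood apart ranked the knockout mice in the same order. One mouse was highest and another lowest for Rtl1, Rian, Mirg and Meg3 alike, and the mice between them kept their places. In the controls 1 mouse was lowest for all 4. Dlk1 followed another order, with the second-ranked knockout mouse highest. The libraries are shared, so this is a description of these mice.

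Levels of different genes can be set side by side only per length. The tags were counted over gene bodies, while the divisor used here is exon length. The bodies of Meg3, Rian and Mirg span 30733, 57766 and 14476 bp, and the exon lengths used are 11467, 3558 and 1291 bp. Exon lengths are those of the poly(A) series. There Meg3 (109545398 to 109568650) and Dlk1 stand for other transcripts than the ones whose bodies were counted. Tags in introns can therefore raise these values unequally, and the order is particular to this divisor. Per kb of exon the control order was Meg3 (20.8 ± 5.08 CPM per kb, SD, n = 4), Rian (16.5 ± 3.93), Mirg (8.41 ± 1.74), Dlk1 (1.28 ± 0.44), Dio3 (0.55 ± 0.18) and Rtl1 (0.18 ± 0.11). On this divisor Meg3 and Rian did not differ beyond their spread in the controls. In the knockouts the order was Rian (156 ± 40.9), Mirg (131 ± 50.6), Meg3 (91.6 ± 20.6), Rtl1 (3.33 ± 1.22), Dlk1 (2.11 ± 0.61) and Dio3 (0.54 ± 0.26), and Rian, Mirg and Meg3 overlapped their neighbours. By the same measure Rtl1 was the lowest of the 6 in the controls and the fourth in the knockouts. Its knockout range, 1.67 to 4.56 CPM per kb, overlapped that of Dlk1, 1.34 to 2.79 CPM per kb. Per the file header, at most 5 tags were kept per position. The highest library held 2.78 tags per exon base for Rian, 2.68 for Mirg, 1.51 for Meg3 and only 0.063 for Rtl1. The tags are spread over the longer gene bodies, so how far the cap lowers the knockout values cannot be read from these numbers.

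**Figure D2:**
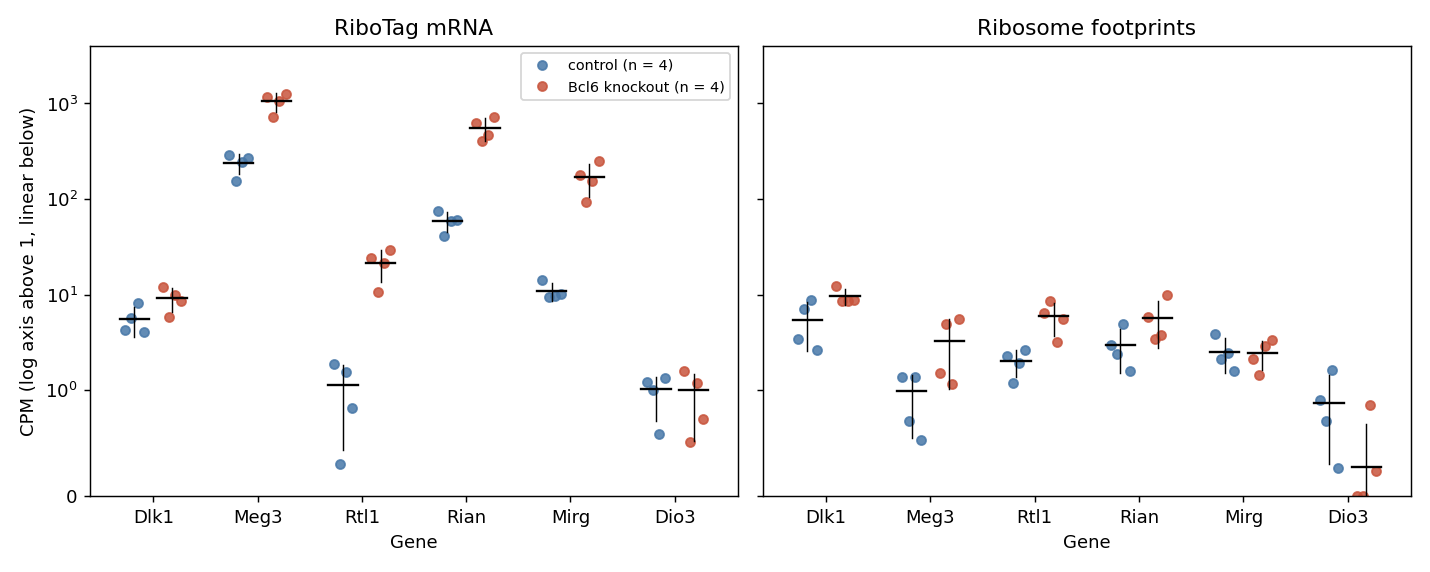
CPM of the 6 genes in RiboTag mRNA (left) and ribosome footprints (right) of 4 control and 4 knockout mice, on an axis that is logarithmic above 1 CPM and linear below. Horizontal bars are means and vertical bars SD, cut at 0. Meg3, Rtl1, Rian and Mirg separate in the mRNA, and Rtl1 alone of the 6 separates in the footprints.

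Along the chromosome the difference lay between Meg3 and Mirg. In mm10 the genes run from Dlk1 (chromosome 12, 109452823 to 109463336), Meg3 (109540996 to 109571729), Rtl1 on the minus strand (109589193 to 109600330), Rian (109603945 to 109661711) and Mirg (109734981 to 109749457) to Dio3 (110279230 to 110281097), a span of 828274 bp. Of the 72 other rows within the span, 62 are microRNA hairpins. They lie at 61 distinct places, since 1 hairpin is listed under a pair of names. Counted once each, they held 419 RiboTag mRNA tags in the knockouts and 26 in the controls, with tags in 26 and 9 of them.

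Only 3 of the other rows in the span passed the filter. The row of Mir410, which lies within Mirg, held 118 tags in the knockouts and 7 in the controls, and AF357359, within Rian, held 102 and 9. Their tags lie inside members, in the contrast that chose the members, so they are a description. The transcript antisense to Rtl1, 6430411K18Rik, held 42 tags in the knockouts, 29 of them in 1 library, and 8 in the controls, too few to test. Dio3os, antisense at the Dio3 end, was at -0.06 (SE 0.32).

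Beyond the domain, 23 rows within 1 Mb on either side were tested in the RiboTag mRNA. With edgeR 0 were called higher (1 at an unadjusted p under 0.05) and 2 were called lower: Tecpr2 (log2 -1.32, adjusted p = 0.0137) and Ankrd9 (log2 -1.02, adjusted p = 0.00382), beside 2.25% of all genes. The flanking rows' median was -0.12. Yy1, which encodes a zinc-finger factor and starts 748 kb before Meg3, was at 0.10 (SE 0.12), and Begain, the coding neighbour upstream of Dlk1, at -0.21 (SE 0.29).

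Tecpr2 and Ankrd9 were lower in both poly(A) comparisons too, which share the knockout libraries. Against Cre-negative mice 1 of 22 flanking rows was called higher with limma, Zfp839 (0.13), and 5 were called lower: Tecpr2 (-0.31), Ankrd9 (-0.23), Traf3 (-0.21), Dync1h1 (-0.17) and Eml1 (-0.13). Of all genes 6.04% were called higher and 9.22% lower in that comparison. Against oil the row called higher was again Zfp839 (0.12), and 8 were called lower, namely those 5 (Tecpr2 at -0.62, Ankrd9 at -0.36) with Hsp90aa1 (-0.17), Rcor1 (-0.12) and Ppp2r5c (-0.08). The shares of all genes against oil were 9.89% higher and 13.5% lower. Inside the span Mir1906-1 and Mir1906-2, a single hairpin within Meg3 listed under both names, were at 0.17 and 0.22 in these comparisons, where they are a description, and Dio3os was at 0.02 and 0.07, called against oil (limma adjusted p = 0.00626). In the footprints Dync1h1 (-0.70) and Ankrd9 (-0.61) were called lower of 18 flanking rows, beside 15.7% of all genes. With FX1 the nascent level of Evl was higher (1.07) and that of Eml1 lower (-0.71) of 23 rows, beside 10.5% and 10.1% of all genes.

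**Figure D3:**
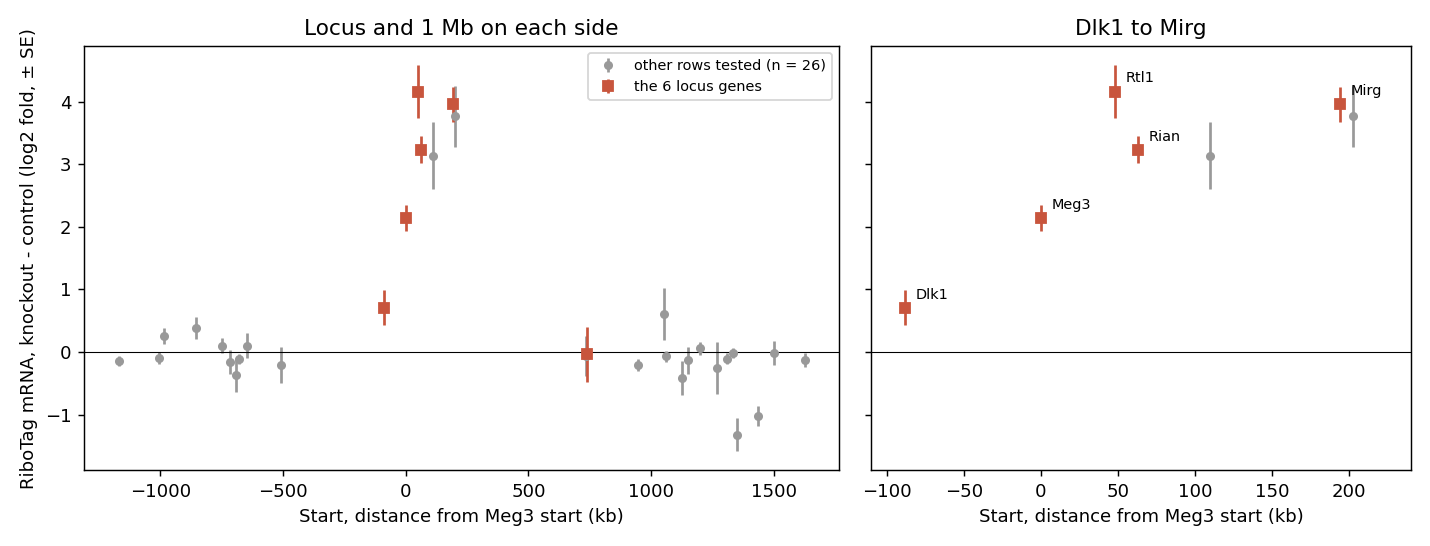
RiboTag mRNA difference, knockout minus control (log2, ± SE), against the distance of each row's start from the Meg3 start, for the 6 locus genes (squares) and the 26 other rows tested (grey). The right panel enlarges Dlk1 to Mirg. Meg3, Rtl1, Rian and Mirg lie between 2.14 and 4.16, and the flanking rows between -1.32 and 0.61.

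Footprints were sparse over the locus, and the row of Rtl1 was higher in the knockouts. Its footprint level was 2.28, 1.18, 1.91 and 2.63 CPM in the controls (32 tags in all) and 6.41, 8.62, 3.16 and 5.49 CPM in the knockouts (85 tags). No knockout overlapped a control, as for 14.1% of genes tested. The log2 difference was 1.52 (SE 0.37, edgeR quasi-likelihood, adjusted p = 0.01, higher in 4 of 4), a 2.87-fold difference, on mean levels of 2 ± 0.62 and 5.92 ± 2.26 CPM. The call held with each library left out (adjusted p 0.0096 to 0.0354). All 4 knockouts and none of the controls reached the filter's minimum of 2.67 CPM, so Rtl1 entered the test through the group in which it was high. Fitted with no such filter, over all rows with a tag, it was at 1.55 (SE 0.40, edgeR adjusted p = 0.00681).

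Other rows lie on the same stretch as Rtl1. The rows of Mir3071, on the strand of Rtl1, and of Mir136, on the opposite strand at nearly the same place, held 19 and 17 footprint tags in the knockouts and 6 and 4 in the controls. The antisense row 6430411K18Rik held 29 and 17. Footprints of Rtl1 and tags of these rows cannot be told apart from these counts.

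Dlk1 footprints were at 3.42, 7.07, 8.75 and 2.63 CPM in the controls and 12.2, 8.62, 8.62 and 8.83 CPM in the knockouts. The groups overlapped and the difference did not pass (log2 0.78, SE 0.34, adjusted p = 0.108). Rian, a non-coding RNA, had 6 to 18 footprint tags a library in the controls and 12 to 41 in the knockouts (log2 0.94, SE 0.42, adjusted p = 0.114). Meg3, Mirg and Dio3 were under the filter, with 16, 41 and 14 footprint tags over the 4 controls and 49, 36 and 4 over the 4 knockouts. Of the 3 members tested, 1 was called higher, where 10.9% of 12979 genes were; the members passed the filter mainly through the knockouts, so nothing is read from that count.

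The markers of several other cell types fell in the same footprint libraries, where 15.7% of all genes were called lower. All 8 endothelial, all 8 macrophage and myeloid, all 8 fibro-adipogenic and all 6 pericyte and smooth muscle markers were called lower, with medians of -1.47, -1.35, -0.99 and -1.31. The summed endothelial level was 164 to 424 CPM in the knockouts and 469 to 838 CPM in the controls. In the RiboTag mRNA 0 of these genes were called with edgeR, and 1 (a pericyte or smooth muscle marker) had an unadjusted p under 0.05. The part of these shifts in the footprint values of the locus was not tested.

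Set against their mRNA, the non-coding RNAs carried few footprints in control muscle. This comparison uses the control mRNA libraries that entered the choice of the members, so it too is a description. The log2 difference of footprint from mRNA level was -7.96 for Meg3 (SE 0.29), -4.4 for Rian (SE 0.28) and -2.17 for Mirg (SE 0.30). Among the coding genes Dlk1 was at -0.11 (SE 0.37) and Rtl1 at 0.68 (SE 0.50).

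The change in footprints relative to mRNA, the translation efficiency contrast, uses the same mRNA contrast and is given without a test. The Rtl1 row was at -2.59 (SE 0.63): its mRNA differed 17.9-fold and its footprints 2.87-fold. Mirg was at -3.98 (SE 0.59), Rian at -2.23 (SE 0.53), Meg3 at -0.38 (SE 0.76) and Dlk1 at 0.11 (SE 0.46). The authors' deposited table gives -4.32 for Mirg, -3.90 for Rian and -1.79 for Meg3.

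Chromatin at the locus held 3 BCL6 peaks whose nearest gene was a member, all intergenic. The peak named for Meg3 lies 35494 bp before the Meg3 start at chromosome 12, 109505392 to 109505612, between Dlk1 and Meg3. It had an authors' score of 123.7 and ranked 436 of 10925 peaks. The peaks named for Dlk1, 16283 and 6407 bp before it, scored 36.8 and 22.1 (ranks 2940 and 5858), beside a median of 23.3 over all peaks. Both Dlk1 peaks lie before the start of Dlk1, outside the span given above. Within the span lie 2 peaks, that of Meg3 and another not named for a member. The window of the latter was at 0.16 in the H3K27ac comparison below and was not called. Scores are the authors' and come from 1 library.

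H3K27ac rose in the window on the Meg3 peak. Its signal, in tags per 10000000, was 1.33, 7.69 and 3.34 in the Cre-negative mice and 21.8, 19.8 and 12 in the knockouts. The mean rose from 4.12 ± 3.25 to 17.9 ± 5.19 (n = 3 each), with no overlap, on 2 to 45 tags a library. The log2 difference was 2.04 (SE 0.43, limma on log2 of signal plus 1, adjusted p = 0.00399, higher in 3 of 3). It passed with each library left out (adjusted p 0.00238 to 0.0218). The filter took the mean tags of both groups together, so the window entered the test through the knockouts, in which it was high. These mice also gave poly(A) RNA that entered the choice of the members. The window named for Dlk1 at 16283 bp did not pass (-0.07, SE 0.29, adjusted p = 0.909), and the one at 6407 bp was under the filter.

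Scaling matters for these windows. Over all 9062 windows the median difference was 0.137 with the deposited scaling, -0.063 after quantile normalization and -0.018 with TMM. Relative to that median the Meg3 window was at 1.91. It was called higher under all 3 scalings (2.04, 1.87 and 1.84). The background of windows called higher was 16.8%, 1518 higher against 130 lower with the deposited scaling and 883 against 517 after quantile normalization.

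At the Meg3 start itself no call was made. The acetylated region on the start (109540773 to 109541273) had a signal of 17.5 ± 2.11 in acute Cre-negative mice and 12.7 ± 7.04 in acute knockouts (log2 -0.61, SE 0.39, adjusted p = 0.761). In the chronic series it was at 8.96, 7.7 and 9.56 in the controls and at 18.6, 17.6 and 11.4 in the knockouts. Those groups did not overlap, yet the difference did not pass across 64569 regions (log2 0.77, SE 0.40, adjusted p = 0.748, unadjusted p = 0.0694). The intronic region beside it and the 6 regions named for Dlk1, 34718 to 53306 bp before it, did not pass in either series, where tested. The rate of calls was 0.121% of 68031 regions in the acute and 0.178% in the chronic series. With limma 0 of the 8 regions tested in the acute and 0 of the 7 tested in the chronic series were called, and 0 had an unadjusted p under 0.05 in either. Within the span lie 22 acetylated regions, most of them not named for a member. Of these 19 were tested in the acute and 16 in the chronic series, and 0 were called in either with limma. A count of 0 among so few regions lies near that background.

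**Figure D4:**
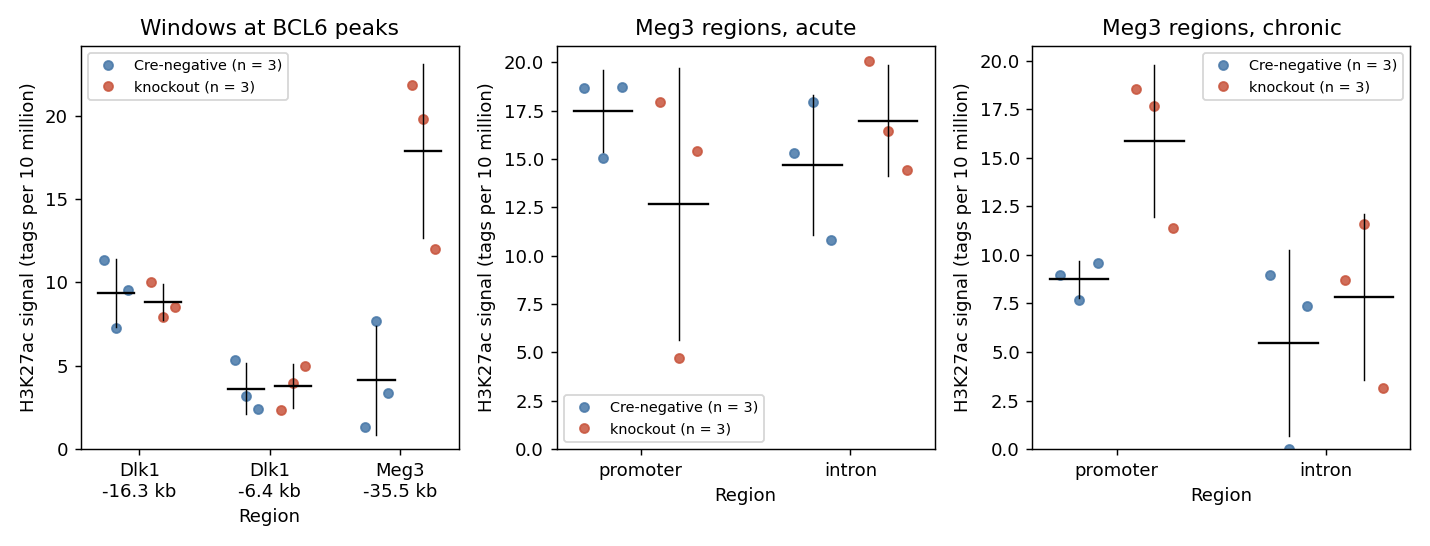
H3K27ac signal (tags per 10000000) by mouse in the windows at BCL6 peaks (left, labelled by gene and distance to its start) and at the Meg3 promoter and intron in the acute (middle) and chronic (right) series. Horizontal bars are means and vertical bars SD, cut at 0, of 3 mice. The window before Meg3 is at 12 to 21.8 in the knockouts and 1.33 to 7.69 in the controls.

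Promoter sequences are printed for 2 of the members, Meg3 and Rian. RefSeq windows of 300 bases (250 before to 50 after the start) were found for 5 of the 6 members, all but Rtl1. The Meg3 window lies under the acetylated region above. Its capitals mark TGACGTCA, which begins 57 bases before the start, and TATAAA, which begins 25 bases before it.
Meg3, chr12:109540746-109541045, plus strand: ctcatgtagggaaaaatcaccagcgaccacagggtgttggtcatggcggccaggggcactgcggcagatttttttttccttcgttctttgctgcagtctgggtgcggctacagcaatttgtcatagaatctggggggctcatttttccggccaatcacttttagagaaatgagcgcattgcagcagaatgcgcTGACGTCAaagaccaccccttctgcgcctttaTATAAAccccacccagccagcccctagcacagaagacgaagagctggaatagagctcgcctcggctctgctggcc

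The Rian window is shown because Rian was among the genes highest in the knockouts. No acetylated region or BCL6 peak was named for Rian. Its capitals mark TTCCCAGAA, 46 bases before the start, the only match to TTCNNNGAA in the windows of the members.
Rian, chr12:109603695-109603994, plus strand: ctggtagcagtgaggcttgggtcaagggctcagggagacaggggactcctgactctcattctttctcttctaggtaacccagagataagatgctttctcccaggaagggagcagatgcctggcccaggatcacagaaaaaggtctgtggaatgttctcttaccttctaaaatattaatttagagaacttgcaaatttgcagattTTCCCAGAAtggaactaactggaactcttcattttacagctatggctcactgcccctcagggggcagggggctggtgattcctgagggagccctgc

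TTCNNNGAA is the palindromic core of sites for STAT factors and BCL6. It occurred in 8.3% of 32851 promoter windows. Its BCL6-type form TTCCTAGAA, a case of the same pattern, occurred in 0.186% on the printed strand. The reverse complement of that form was not searched. TGACGTCA, the palindromic core of sites for CREB and related factors, occurred in 1.79%, and TATAAA on either strand in 13.6%. Dlk1, Mirg and the downstream Meg3 window held none of these letters, and Dio3 held TATAAA. A match describes the letters only. The sequence under the BCL6 peak before Meg3 was not analysed here.

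In wild-type muscle given FX1, nascent transcription rose at Mirg. The deposited log2 values were 7.28, 6.52, 5.52, 6.11 and 6.60 with FX1 and 5.43, 5.39, 5.38, 5.57 and 5.52 with DMSO. Of the FX1 libraries 4 lay above every control, and FX1 library 3 lay among them. The difference was 0.95 (SE 0.25, limma adjusted p = 0.0225). The call is lost without DMSO library 3 (adjusted p = 0.0522) or without FX1 library 2 (adjusted p = 0.0539), and the difference ranged from 0.73 to 1.17 over all libraries left out. The authors' deposited table gives Mirg a log2 fold change of 1.64.

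The other members did not pass. Rtl1 was at 6.35, 6.64, 6.26, 6.06 and 6.27 with FX1 and 6.08, 5.97, 6.14, 5.60 and 5.75 with DMSO, a difference of 0.41 (SE 0.14, adjusted p = 0.0639) with 1 FX1 value inside the control range. Strand use is not stated for this table either. Rtl1 passes without FX1 library 4 (adjusted p = 0.0465), and the authors' deposited table gives it 0.65 with an adjusted p of 0.0499. Rian was at 9.59, 9.49, 8.81, 9.60 and 9.62 against 9.38, 9.51, 9.39, 8.73 and 9.37 (difference 0.15, SE 0.19, adjusted p = 0.626). Meg3 was at 8.26 to 9.24 against 8.52 to 8.97 (difference -0.01, SE 0.17, adjusted p = 0.982). Dlk1 and Dio3 were under the filter. Of the 4 members tested 1 was called higher, where 10.5% of 15683 genes were.

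Some markers of muscle cells were lower in the same nascent libraries, where 10.1% of all genes were called lower. Of the muscle fibre genes 6 of 12 were lower and 0 higher with FX1 (median -0.79), and of the satellite cell and regenerating fibre genes 3 of 11 were lower, among them Myod1, a myogenic transcription factor (difference -1.92, SE 0.19, limma adjusted p = 0.000168). Of the adipocyte genes 4 of 6 were lower. The part of these shifts in the nascent values of the locus was not tested.

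**Figure D5:**
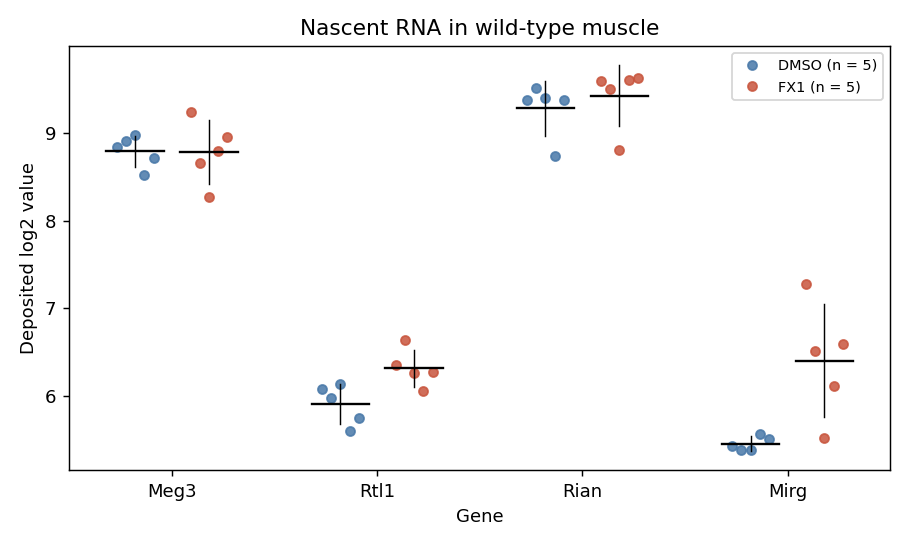
Deposited log2 values of nascent RNA in wild-type muscle with DMSO or FX1 (5 libraries each) for the 4 members that passed the filter. Points are libraries, horizontal bars are means and vertical bars SD. Mirg is at 5.52 to 7.28 with FX1 and 5.38 to 5.57 with DMSO, and Meg3 and Rian overlap.

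Other genes linked to the domain were taken from lists. Of the other imprinted genes, 36 of 40 were tested in poly(A) RNA against Cre-negative mice, where 13 were higher and 3 lower (median 0.02, beside 0.00 over all genes). Of all genes 6.04% were called higher and 9.22% lower there. Peg10, a placental gene also derived from a retrotransposon, differed by 0.57 (SE 0.05, limma adjusted p = 7.51e-06), Peg3, a zinc-finger gene, by 0.61 (SE 0.05, 1.17e-05), and Igf2r, the receptor that clears IGF2, by -0.22 (SE 0.03, 8.88e-05). In the RiboTag mRNA 2 of 35 were higher and 0 lower: Peg10 (log2 2.93, SE 0.25, edgeR adjusted p = 5.78e-05) and Igf2, a fetal growth factor (log2 0.69, SE 0.16, 0.0297). The background there was 1.95% of all genes called higher and 2.25% lower. Peg10 footprints rose by a like amount (log2 2.92, SE 0.14, adjusted p = 1.06e-07), and 7 of 30 imprinted genes were higher and 6 lower in the footprints, beside 10.9% and 15.7% of all genes.

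Dlk1 belongs to the Notch pathway and Dio3 to thyroid hormone handling. Of the Notch pathway genes tested, 0 of 16 were called with limma against Cre-negative mice (1 at an unadjusted p under 0.05) and 0 of 16 with edgeR in the RiboTag mRNA (0 unadjusted). Against oil 1 of 16 was higher, Rbpj (0.10, SE 0.02, limma adjusted p = 0.00809), and 3 lower, among them Notch3 (-0.19, SE 0.04, 0.00174) and Notch1 (-0.12, SE 0.03, 0.0139), beside 9.89% and 13.5% of all genes. In the footprints 0 of 14 were higher and 7 lower, beside 15.7% of all genes called lower, Notch1 by -1.63 (SE 0.24, edgeR adjusted p = 0.00102). Of the genes for thyroid hormone handling, 0 of 11 were higher and 4 lower against Cre-negative mice, with Rxrg, a retinoid X receptor, at -0.24 (SE 0.04, limma adjusted p = 0.000533), beside 9.22% of all genes called lower. In the RiboTag mRNA 0 of 11 were higher and 2 lower, Rxrg (-0.77, SE 0.11, 0.00159) and the transporter Slc16a10 (-0.60, SE 0.10, 0.00481), beside 2.25%.

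Of the genes known to regulate imprinting or the locus, 1 of 17 was higher and 3 lower in poly(A) RNA against Cre-negative mice, beside 6.04% and 9.22% of all genes. The one higher was Tet1, which oxidizes methylcytosine (0.24, SE 0.04, limma adjusted p = 0.000481), and Dnmt3a, a DNA methyltransferase (-0.28, SE 0.04, 0.000874), and Mef2a, a muscle transcription factor (-0.09, SE 0.03, 0.033), were among the lower. In the RiboTag mRNA 0 of 18 were called with edgeR (1 at an unadjusted p under 0.05). In the footprints 5 of 15 were higher and 0 lower, beside 10.9% of all genes called higher, among them Tet1 (log2 1.28, SE 0.24, edgeR adjusted p = 0.00299), Tet2 (0.84, SE 0.20, 0.00865) and Ctcf, which encodes an insulator protein (0.47, SE 0.14, 0.0236).

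In each comparison some of the satellite cell and regenerating fibre markers tested were called and others were not. Of 12 tested in the RiboTag mRNA, 2 were higher and 0 lower, beside 1.95% and 2.25% of all genes. The 2 were Myh3, embryonic myosin (log2 1.55, SE 0.23, edgeR adjusted p = 0.00287), and Cdh15, M-cadherin (log2 0.39, SE 0.09, 0.0313). The median of the 12 was 0.06, and the summed level of the 14 genes was 256 to 282 CPM in the knockouts and 198 to 225 CPM in the controls. In poly(A) RNA against Cre-negative mice 1 of 11 was higher (Myh8) and 1 lower (Pax3), beside 6.04% and 9.22% of all genes. Against oil 5 of 12 were higher and 0 lower, beside 9.89% of all genes called higher, among them Myh8, perinatal myosin (0.51, SE 0.10, limma adjusted p = 0.00265), Myh3 (0.42, SE 0.08, 0.00134) and Cdh15 (0.18, SE 0.03, 0.000523). In the footprints 1 of 11 was higher, Myod1 (log2 0.56, SE 0.12, edgeR adjusted p = 0.00445), beside 10.9% of all genes. The 2 called lower were Vcam1 (-0.92, SE 0.20, 0.00526) and Calcr (-1.08, SE 0.31, 0.0196), beside 15.7%. The part of these cells in the members' values was not tested.

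The genes whose pattern was most like that of Rian over the 9 libraries of the Cre-negative table were Stum, Meg3, Chrna9, Acss1 and Idh2 (Pearson r 0.999, 0.998, 0.993, 0.993 and 0.989). Mirg ranked 10 at 0.98. Over the 8 RiboTag mRNA libraries, those most like Rtl1 in log2 CPM were Meg3, Rian, Aida, Tut1 and Mirg (r 0.994, 0.990, 0.987, 0.985 and 0.984), while Dlk1 had 0.73 and Dio3 -0.02. These libraries share the genotype split and their depth, and the values are a description.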

How the data were processed

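The members and gene lists were chosen with earlier results of these data known. Per the submitters' processing notes, reads were processed against mm10 with Bowtie 1.2, STAR 2.4.0, HOMER and DESeq2 1.14.1. Per the file headers, the poly(A) tables (exons, both strands) and the nascent table hold log2 values deposited by the authors, with no transformation named. The RiboTag table holds deposited counts over gene bodies with at most 5 tags per position, per its header. Per the file headers, H3K27ac tables hold signal scaled to 10000000 tags, and the authors' peak list gives a score. The authors' deposited log2 fold changes, p-values and adjusted p-values are named where used.

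Log2 values and log2(signal + 1) were fitted with limma 3.58.1 with trended variance (features with a mean log2 value above 3.32, the log2 of 10, or a mean of at least 10 tags), and counts with the quasi-likelihood test of edgeR 4.0.16 after TMM scaling and filterByExpr at 10 counts, over all features, with Benjamini-Hochberg adjustment and a threshold of 0.05. Footprint and mRNA libraries pair because each mouse gave both, per the labels. Scripts were tested on simulated data. Replicates are mice or libraries as labelled, and p-values measure the spread between these samples. Depth limits precision, and counting error is not the only error.

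Named rows were the members, rows within 1 Mb called in a knockout or FX1 comparison, up to 3 called members of each list with the smallest p, the 5 genes most like Rian and Rtl1, and every region or peak named for a member. Of 74 samples, 58 were used; the 16 others, among them chronic RNA and input libraries, were not used here.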

Additional observations from a re-analysis of the deposited data

Results flagged for a closer look

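In 60 groups of 4 or 5 libraries (6 genes, 5 tables, both groups), 8 held a library far from the rest by Dixon's test, which flags about 1 in 20 by chance; the poly(A) knockouts are counted in both tables. In poly(A) RNA, 1 Cre-negative mouse was high for Dlk1 (5.47, the others 5.40), another Cre-negative mouse was high for Mirg (6.57, the others 6.52) and 1 knockout mouse was high for Dio3 in both tables (3.35 and 3.16). These shifts are under 0.1 on a compressed scale. One RiboTag knockout mouse was high for Dlk1 footprints at 12.2 CPM, the others at 8.62 to 8.83 CPM. In nascent RNA, FX1 library 3 was low for Dlk1 (0.921) and for Rian (8.81, the others 9.49 to 9.62), and DMSO library 4 was low for Rian (8.73, the others 9.37 to 9.51). FX1 library 3 was also the lowest of its group for Mirg and Meg3.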

How the results depend on the processing

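The differences of Meg3, Rian, Mirg and Rtl1 in the 3 knockout RNA comparisons, the Rtl1 footprint call and the Meg3 window call kept their direction under every alternative tried, and both calls passed each time. Dlk1 against oil (-0.0026 to 0.038) and Dio3 in RiboTag mRNA (-0.35 to 0.16) did not keep theirs over the libraries left out. In the main fits the Rtl1 footprints and the Meg3 window passed the filter through the knockouts, in which they were high. The mice of both series also gave RNA that entered the choice of the members. With no filter, Meg3 footprints were called too (1.71, adjusted p = 0.0374), on few tags. Counts of called features moved more: RiboTag mRNA from 609 to 961 with DESeq2, acute acetylation from 82 to 142 with a pseudocount of 5 and 172 with edgeR on recovered tags, and chronic acetylation from 115 to 241, 288 (quantile) and 383. The nascent numbers did not pair (same-number correlations -0.429, -0.0369, -0.307, -0.238 and 0.175), and the replicate block gave 1853 calls in place of 3229, with Mirg still called (adjusted p = 0.0384). Footprint and mRNA libraries pair by mouse, and there the block changed no call of a member. Leaving out each library gave 395 to 826 calls in RiboTag mRNA, 2293 to 3761 in footprints, 310 to 1892 for translation efficiency, 16 to 85 and 0 to 405 for acute and chronic acetylation and 1041 to 1636 for windows. The chronic count was 3, 0 and 6 without each of the 3 knockouts (limma, with 3074, 3109 and 3336 regions at an unadjusted p under 0.05). Small differences changed sign over the libraries left out: nascent Meg3 (-0.12 to 0.12), the Dlk1 window (-0.222 to 0.0692), the acute Dlk1 regions 53306, 40890 and 34718 bp upstream (-0.39 to 0.23, -0.45 to 0.10 and -0.17 to 0.44), the chronic ones 50668, 40890 and 39872 bp upstream (-1.02 to 0.0469, -0.14 to 0.41 and -0.17 to 0.78) and the chronic Meg3 intron (-0.20 to 1.46). The causes were not tested. Low tag numbers limit the footprints and acetylated regions.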
